A study of Mus musculus with 15 samples.

Results

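The comparison described here set GSK-J4 against its solvent, dimethyl sulfoxide (DMSO), in GL7+ activated B cells, with 3 libraries for each. It was read across the 10048 of 21761 genes that reached 1 RPKM (reads per kilobase of transcript, scaled to library size) in at least 3 of these 6 libraries, which are 6 of the 15 in the series. B cells lacking CD43 were isolated from wild-type female C57BL/6J mice and stimulated ex vivo with IL-2, IL-5 and LPS in the presence of DMSO or of 250 nM GSK-J4. RNA was taken after 3 days of culture, and the cells described here had been enriched for GL7 with magnets. The other libraries came from naive B cells and from CD138+ cells given the same 2 treatments. Mice 1, 2 and 3 each gave a DMSO and a GSK-J4 library of GL7+ cells. As a model, the fraction is a magnetic enrichment from a mixed culture, at a single dose and a single time.

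GSK-J4 is a cell-permeable ester of GSK-J1, an inhibitor of the JmjC histone demethylases KDM6A (UTX) and KDM6B (JMJD3). These enzymes remove trimethylation from lysine 27 of histone H3 (H3K27me3), the repressive mark that the Polycomb complex PRC2 writes through EZH2 or EZH1. GL7 is a glycan epitope found on activated and germinal centre B cells, and CD138 (Sdc1) marks plasmablasts and plasma cells, into which LPS drives some of the cells in culture.

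Each GL7+ library held 9174502 to 12212072 reads on genes, and for a gene of median length 1 RPKM stood for 24.8 to 33.0 reads. The first principal component carried 53.8% of the variance of the 6 libraries and separated the treatments. Being a glycan, GL7 could not be checked in RNA. The 8 B cell markers, among them Cd79a and Pax5, summed to 1837 to 1944 RPKM in the DMSO libraries and 1431 to 1618 RPKM in the GSK-J4 libraries. The 25 plasma cell genes summed to 2409 to 2616 RPKM with DMSO and 2830 to 3107 RPKM with GSK-J4, against 8083 to 8517 RPKM in CD138+ cells given DMSO. Of the markers of other cells, 2 of 12 T cell, 1 of 10 NK cell and 2 of 15 myeloid genes reached the level tested, as did 3 of 10 dendritic, 1 of 11 erythroid and platelet and 1 of 10 stromal and endothelial genes. The summed T cell markers lay at 7.49 to 8.44 RPKM with DMSO and 9.38 to 10.01 RPKM with GSK-J4, most of it Cd247 and Lck, and the summed myeloid markers at 10.9 to 14.65 and 6.98 to 12.05 RPKM. The summed erythroid and platelet markers lay at 5.82 to 7.30 RPKM with DMSO and 9.19 to 9.92 RPKM with GSK-J4. Most of it was Hbb-b1, which was not called, while Hba-a2, Alas2 and Klf1 lay below the level tested. The summed stromal and endothelial markers lay at 34.7 to 36.7 and 23.6 to 29.4 RPKM, most of it Pecam1. The summed dendritic cell markers lay at 76.5 to 78.4 and 69.8 to 75.9 RPKM. Most of that was Flt3 and Bst2, whose means moved in opposite directions (31.59 to 20.87 and 43.15 to 48.47 RPKM). The summed NK cell markers lay at 3.91 to 5.12 and 5.08 to 7.67 RPKM. The groups did not overlap for the T cell, erythroid, stromal and dendritic sums, and the part of such cells in the results was not tested. Among these markers Il2rb, a chain of the IL-2 receptor, was called higher, and Flt3 and Pecam1 were called lower, Pecam1 not without the DMSO library of mouse 1 or the GSK-J4 library of mouse 2 (adjusted p = 0.059 to 0.077). The defining genes Cd3e, Themis, Ncr1, Mpo, S100a8, Clec9a and Col1a2 were at 0 in both groups, but other members of these lists were not. Below the level tested, Lyz2 had means of 0.320 RPKM with DMSO and 0.973 RPKM with GSK-J4. The means of Zap70 lay the other way, at 0.363 and 0.195 RPKM. For both Lyz2 and Zap70 the groups overlapped.

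GSK-J4 changed many genes by a small amount and the metallothioneins Mt1 and Mt2 by the most. Of the 10048 genes, 1483 (14.8%) differed at an adjusted p under 0.05 in limma's moderated test, which is what "called", "rose" and "fell" mean from here on. Of these 638 rose (6.35%) and 845 fell (8.41%), and these shares are the background for each list count below. Log2 changes were taken of RPKM + 1, so those of weakly expressed genes come out too small. The median was 0.28 among the genes that rose and -0.37 among those that fell, beside -0.01 over all tested genes. On this scale 6 of the genes that rose and 8 of those that fell changed by at least 1. The groups did not overlap for 1474 of the 1483 called genes, and 1479 moved the same way in all 3 mice. Over all tested genes, the GSK-J4 libraries all lay above the DMSO libraries for 2015 (20.1%) and all below for 2229 (22.2%). The share called was 11.62% among the genes with the lowest means and 20.3% among those with the highest, when the genes were divided by mean level into 4 equal groups.

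**Figure D1:**
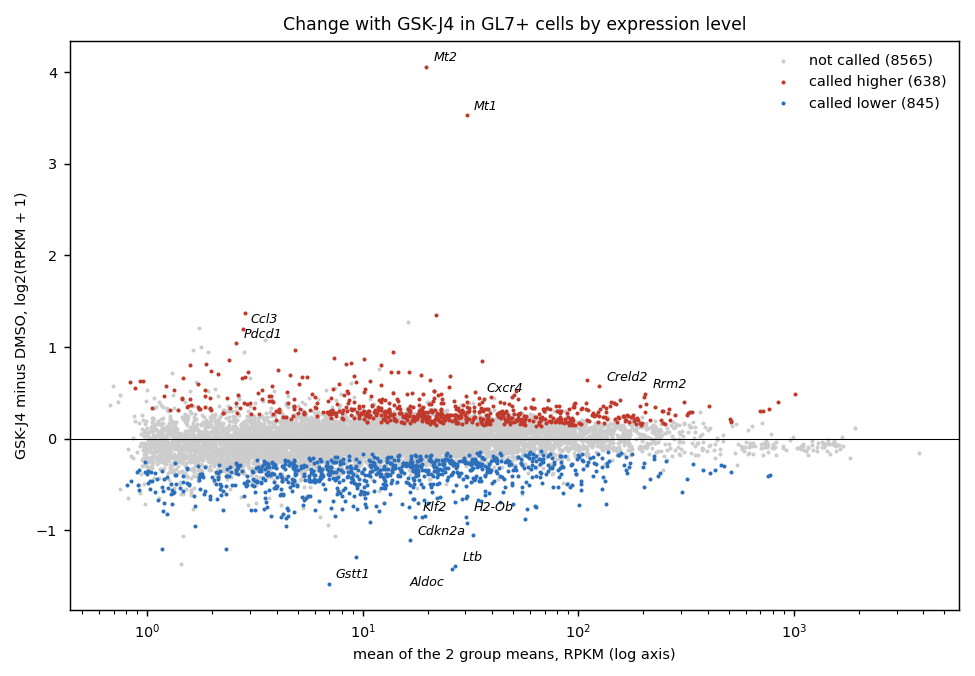
Each point is 1 of the 10048 tested genes in GL7+ cells, with the mean RPKM on a log axis and the difference between the means of log2(RPKM + 1) with GSK-J4 and with DMSO on the other axis; red and blue points are the 638 genes called higher and the 845 called lower. Mt1 and Mt2 stand apart from the rest at log2 changes of 3.53 and 4.06, and most called genes lie within 1 log2 unit of 0.

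The number of calls depended on single libraries. It fell to 806 without the DMSO library of mouse 1 and 871 without that of mouse 3, and to 777 and 839 without the GSK-J4 libraries of mice 2 and 3. It rose to 2286 without the second naive library, the shallowest of the series, which enters through the shared estimate of spread. The rises alone numbered 415 without the DMSO library of mouse 2. No gene called in GL7+ cells changed sign under any of the alternatives, but most of them could not have turned a sign. Where groups do not overlap, as for 1474 of the 1483 called genes, leaving out a library cannot reverse the change. Fits that alter only the estimate of spread leave the difference of means as it was. With median-ratio scaling in place of the deposited one, 57.8% of the calls were rises (946 higher and 690 lower), against 43.0%. The genes named by rule below kept their call in every alternative that tested them and without each library in turn, unless a sentence says otherwise (libraries named there were left out 1 at a time); genes named only within a count or for a motif were not followed in this way. A log2 change is given ± its standard error, which comes from the fit of all 15 libraries, and a mean RPKM ± the SD of 3 libraries.

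The metallothioneins, small cysteine-rich proteins that bind zinc and copper, changed most. Mt1 stood at 3.56, 4.92 and 3.60 RPKM with DMSO and 53.2, 57.3 and 59.8 RPKM with GSK-J4. Mt2 stood at 2.19, 1.10 and 0.917 RPKM with DMSO and 37.3, 37.2 and 39.6 RPKM with GSK-J4, where the lowest DMSO library held 5 reads. The groups lay far apart for both genes. Their log2 changes were 3.53 ± 0.097 (adjusted p = 1.5e-11) and 4.06 ± 0.17 (adjusted p = 2.1e-09), or 14.1-fold and 27.2-fold between the group means. In CD138+ cells the changes were 3.89 and 4.41, and the difference between fractions was not called for either gene (adjusted p = 0.248 and 0.547).

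Because these genes led the response, the 250 bases before their starts in the RefSeq promoter table (GRCm38.p6) are given, with matches to the core of the metal response element in capitals. The letters searched were TGCACNC and TGCGCNC on either strand. Mt1 (chr8:94178839-94179088) and Mt2 (chr8:94172368-94172617) both lie on the plus strand, and elements past the annotated start are not in these windows.
Mt1 promoter: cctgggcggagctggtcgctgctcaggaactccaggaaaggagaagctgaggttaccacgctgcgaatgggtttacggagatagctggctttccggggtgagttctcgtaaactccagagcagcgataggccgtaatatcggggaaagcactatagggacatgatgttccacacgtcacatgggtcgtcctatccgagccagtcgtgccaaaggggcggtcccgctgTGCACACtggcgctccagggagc
Mt2 promoter: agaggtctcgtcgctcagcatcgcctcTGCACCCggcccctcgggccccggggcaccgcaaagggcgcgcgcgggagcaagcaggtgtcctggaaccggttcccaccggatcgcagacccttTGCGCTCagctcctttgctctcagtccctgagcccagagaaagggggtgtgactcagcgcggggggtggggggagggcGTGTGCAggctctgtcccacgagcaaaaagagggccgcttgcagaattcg

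The Mt1 window held 1 match and the Mt2 window 3. These counts hold for the annotated starts only. Whether the cells used those starts was not tested, so the Mt1 window in particular may miss elements. At least 1 match in the same 250 bases was held by 21.4% of the 32851 tabulated promoters, so that a match by itself is common.

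The other genes of metal handling moved less. Of 19 tested genes for metallothioneins, zinc transport and metal response, 4 rose and 1 fell, with a median log2 change of 0.14. Slc30a1, which exports zinc from the cell and like the metallothioneins is a known target of the metal-sensing factor MTF1, stood at 2.56, 2.07 and 2.28 RPKM with DMSO and 3.22, 3.38 and 3.35 RPKM with GSK-J4 (log2 change 0.39 ± 0.12, adjusted p = 0.043). Its groups did not overlap, but the call was lost without any 1 of the 6 libraries (adjusted p = 0.064 to 0.13) and with no filter on low values (0.088). Slc30a5, which loads zinc into the secretory pathway, changed by 0.19 ± 0.056 (adjusted p = 0.034), a call lost without the DMSO libraries of mice 1, 2 and 3 or the GSK-J4 libraries of mice 2 and 3 (adjusted p = 0.071 to 0.13), with no filter on low values (0.05) and with the mouse as a block (0.052). Slc39a1, a zinc importer of the plasma membrane, changed by -0.25 ± 0.057 (adjusted p = 0.011), and the call was lost without the GSK-J4 library of mouse 3 (adjusted p = 0.05). The list's rises numbered 2 without the DMSO libraries of mice 1, 2 and 3 or the GSK-J4 libraries of mice 2 and 3, 8 with median-ratio scaling and 2 with no filter on low values. Mtf1 itself had overlapping groups, at 4.97 ± 0.234 RPKM with DMSO and 5.05 ± 0.249 RPKM with GSK-J4. All 4 members that rose held a match to the core within their promoter window, as did 3 of the 11 members that were not called and had a promoter in the table, against 34.5% of 8021 tested genes.

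**Figure D2:**
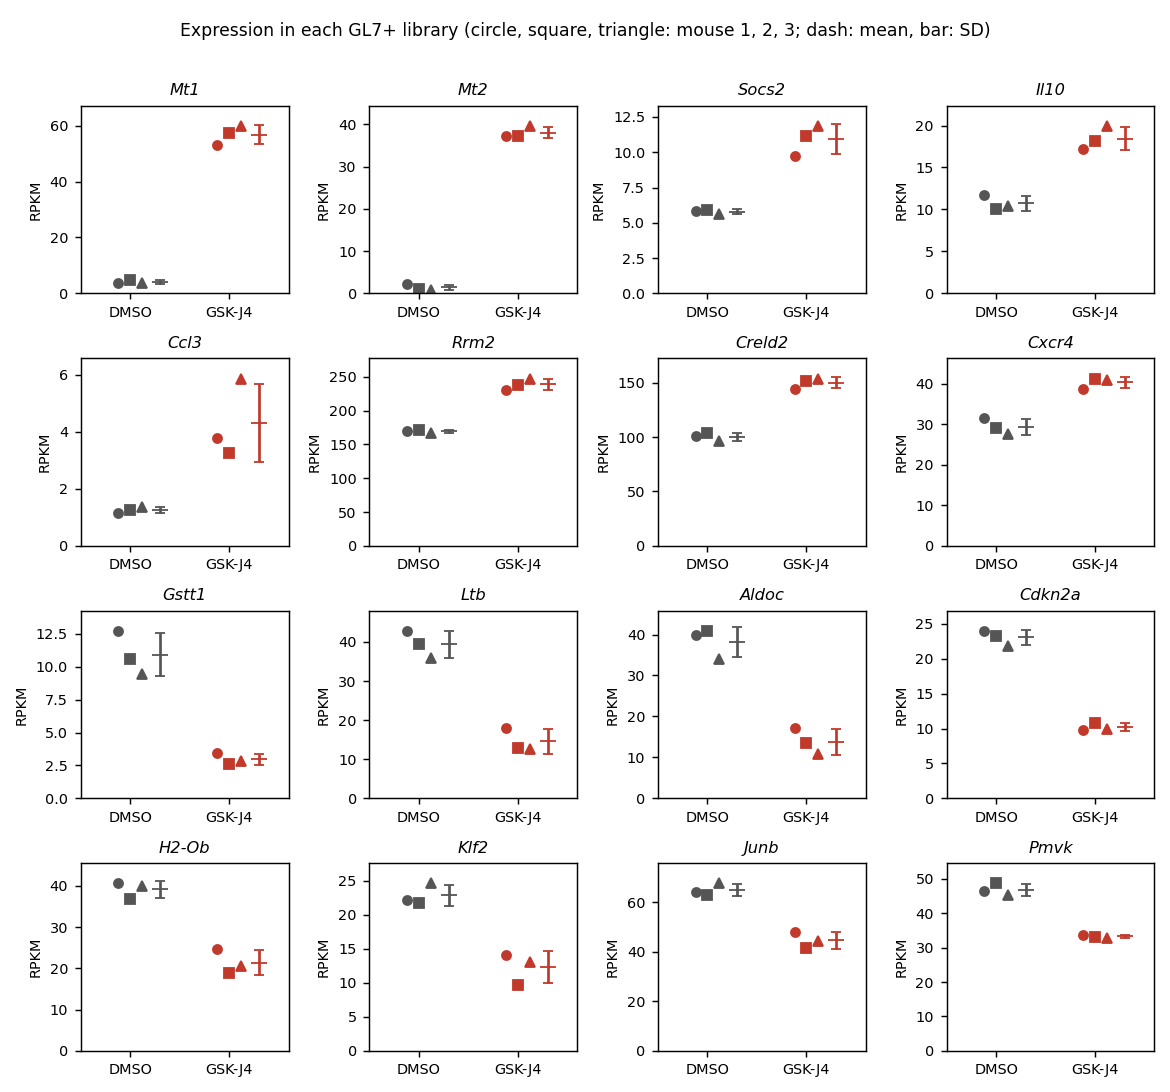
RPKM of 16 genes in each GL7+ library, on linear axes that start at 0; circles, squares and triangles are mice 1, 2 and 3, and the dash with its bar is the mean and SD of 3 libraries. In each panel the 3 GSK-J4 libraries and the 3 DMSO libraries do not overlap.

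The drug's targets were expressed in these cells. Kdm6a, the demethylase encoded on the X chromosome, stood at 23.6, 23.2 and 20.8 RPKM with DMSO and 23.5, 24.0 and 20.3 RPKM with GSK-J4. Kdm6b, the demethylase that inflammatory signals induce, stood at 7.85, 5.73 and 9.05 RPKM with DMSO and 6.24, 5.57 and 6.04 RPKM with GSK-J4. The groups overlapped for both, and neither was called (log2 change 0.00 ± 0.082, adjusted p = 0.982, and log2 change -0.28 ± 0.11, adjusted p = 0.105). Kdm6b was called lower without the DMSO library of mouse 2 (adjusted p = 0.0051), with library weights (0.022) and with voom (0.036). Among 28 tested genes of Polycomb complexes and H3K27 demethylases, 3 rose and 5 fell around a median of -0.02. The rises numbered 1 without any 1 of the 6 libraries and 6 with median-ratio scaling, and the falls 1 without the GSK-J4 library of mouse 2, 2 without the DMSO library of mouse 1 or the GSK-J4 library of mouse 3, 3 without the DMSO library of mouse 3, 3 with quantile normalization and 2 with a filter of 5 RPKM.

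Within PRC2 the catalytic subunits moved apart. Ezh2, the form of proliferating cells, stood at 113.7, 109.7 and 108.6 RPKM with DMSO and 133.4, 135.2 and 138.8 RPKM with GSK-J4. Every GSK-J4 library of Ezh2 lay above every DMSO library (log2 change 0.29 ± 0.041, adjusted p = 0.00054). Its change in CD138+ cells was 0.02, and the difference between fractions was called (0.27, adjusted p = 0.04). Ezh1, the form of resting cells, changed by -0.23 ± 0.066 (adjusted p = 0.028), a call lost without the DMSO libraries of mice 1 and 3 or the GSK-J4 libraries of mice 2 and 3 (adjusted p = 0.054 to 0.12), with median-ratio scaling (0.054) and with quantile normalization (0.11). Of the chromobox readers of H3K27me3, Cbx7 fell from 6.94 ± 0.592 RPKM with DMSO to 4.997 ± 0.113 RPKM with GSK-J4. Cbx6 and Cbx8 fell less firmly, by 0.30 and 0.51 on the log2 scale (adjusted p = 0.02 and 0.013). Cbx6 lost its call without the DMSO libraries of mice 1 and 3 or the GSK-J4 libraries of mice 2 and 3 (adjusted p = 0.057 to 0.089). Cbx8 lost its call without the DMSO library of mouse 2 or the GSK-J4 library of mouse 2 (adjusted p = 0.057 to 0.067).

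Of 17 tested JmjC demethylases outside the KDM6 pair, 5 fell and the median log2 change was -0.08. Kdm4a, which acts on H3K9 and H3K36 methylation, fell from 29.7 ± 0.658 RPKM with DMSO to 22.9 ± 1.16 RPKM with GSK-J4, and its relative Kdm4b from 10.6 ± 0.855 RPKM with DMSO to 7.501 ± 0.772 RPKM with GSK-J4. Kdm5b, which acts on H3K4 methylation, stood at 4.72, 4.64 and 4.08 RPKM with DMSO and 2.86, 2.80 and 1.92 RPKM with GSK-J4. Its groups did not overlap (log2 change -0.64 ± 0.11, adjusted p = 0.0016). Kdm7a changed by -0.44 ± 0.087 (adjusted p = 0.0042). Of 26 developmental genes that Polycomb is known to silence, 1 reached the level tested. This was Hoxb4, at 1.23 ± 0.182 RPKM with DMSO and 1.09 ± 0.199 RPKM with GSK-J4, and it was not called (adjusted p = 0.676).

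Cdkn2a, which encodes the cell cycle inhibitor p16 and the p53 activator p19 and is a textbook target of Polycomb silencing, fell in every mouse. Its level, which does not separate the 2 products, was 24.0, 23.3 and 21.9 RPKM with DMSO and 9.86, 10.8 and 9.87 RPKM with GSK-J4 (log2 change -1.10 ± 0.11, adjusted p = 5.3e-05). Naive cells held almost none, with a mean of 0.0223 RPKM. Of 6 tested inhibitors of cyclin-dependent kinases 3 fell. Cdkn2d changed by -0.54 ± 0.13 (adjusted p = 0.012), a call lost without the GSK-J4 library of mouse 2 (adjusted p = 0.054). Cdkn1b, which encodes p27, changed by -0.42 ± 0.10 (adjusted p = 0.015), a call lost without the DMSO library of mouse 1 or the GSK-J4 libraries of mice 2 and 3 (adjusted p = 0.056 to 0.071). The falls of this list numbered 1 without the GSK-J4 library of mouse 2. Cdkn1a, which encodes p21, stood at 8.89, 10.2 and 8.25 RPKM with DMSO and 12.4, 12.8 and 12.6 RPKM with GSK-J4. It lay higher without overlap and was not called (log2 change 0.43 ± 0.18, adjusted p = 0.129). It was called in some alternatives, among them the fits of the cultured groups alone (adjusted p = 0.00095) and of the 6 libraries alone (0.0054). With quantile normalization 1 gene of this list was called higher.

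Genes of DNA replication rose together. Of 28 tested S phase genes 19 rose, and all 28 had a positive log2 change, with a median of 0.26. Over all tested genes 6.35% rose and 47.5% had a positive change. Rrm2, the inducible subunit of the ribonucleotide reductase that makes deoxynucleotides, stood at 171, 171 and 167 RPKM with DMSO and 231, 238 and 248 RPKM with GSK-J4 (log2 change 0.49 ± 0.050, adjusted p = 7.1e-05). Its partner Rrm1 stood at 120.8, 121.2 and 119.8 RPKM with DMSO and 144.8, 148.3 and 149.4 RPKM with GSK-J4 (log2 change 0.29 ± 0.043, adjusted p = 0.00079). The libraries of each group lay close together for both genes, and the groups did not overlap. Cdc6, which loads the replicative helicase, changed by 0.48 ± 0.058 (adjusted p = 0.00024), and Mcm4, a subunit of that helicase, by 0.33 ± 0.045 (adjusted p = 0.00048). The E2F letters TTTCGCGC, TTTGGCGC or TTTCCCGC, on either strand, were in the promoter windows of 4 of the 16 S phase genes that rose and had one and of 3 of the 7 that were not called, against 3.84% of tested genes.

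Of 13 E2F factors and pocket proteins 4 rose. Tfdp1, the dimer partner of E2F factors, rose from 112 ± 2.60 RPKM with DMSO to 141 ± 4.90 RPKM with GSK-J4. Rbl1, the pocket protein p107, rose from 17.1 ± 0.429 RPKM with DMSO to 20.8 ± 0.331 RPKM with GSK-J4. The repressive factors E2f7 and E2f8 rose by 0.34 and 0.34 (adjusted p = 0.016 and 0.014). The call of E2f7 was lost without the DMSO library of mouse 2 or the GSK-J4 libraries of mice 2 and 3 (adjusted p = 0.051 to 0.067) and with a pseudocount of 0.1 (0.086). That of E2f8 was lost without the GSK-J4 library of mouse 2 (adjusted p = 0.052) and with a pseudocount of 0.1 (0.092). The rises of the list numbered 8 with median-ratio scaling and 2 with a pseudocount of 0.1.

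Mitotic genes did not pass the main test. In limma's test 0 of 25 genes of G2 and M phase were called, with 2 higher and 1 lower at an unadjusted p under 0.05, and a median log2 change of 0.07. With voom on the reads recovered from the RPKM values, 4 were called higher and 2 lower. In the fit of the cultured groups alone 5 were called higher and 2 lower, beside 1151 and 1278 of all tested genes. Top2a, which resolves DNA tangles before mitosis, stood at 168.1 ± 5.65 RPKM with DMSO and 179.5 ± 6.22 RPKM with GSK-J4 (adjusted p = 0.26). Mad2l1, a spindle checkpoint protein, stood at 44.2 ± 0.872 RPKM with DMSO and 51.8 ± 1.22 RPKM with GSK-J4 (adjusted p = 0.099), and was called in the fit of the cultured groups alone (0.015) and with voom (0.0061).

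Among nucleotide synthesis genes the called ones mostly rose. Of 21 genes of purine and pyrimidine synthesis 8 rose and 1 fell, and the median log2 change was 0.18. Ppat, which commits ribose to purine synthesis, stood at 27.2, 27.8 and 28.4 RPKM with DMSO and 34.5, 33.8 and 35.4 RPKM with GSK-J4 (log2 change 0.30 ± 0.049, adjusted p = 0.0013). Ctps, which makes CTP, stood at 40.7, 41.2 and 41.5 RPKM with DMSO and 49.99, 49.4 and 53.3 RPKM with GSK-J4 (log2 change 0.30 ± 0.043, adjusted p = 0.00065). Every GSK-J4 library lay above every DMSO library in these genes. Umps, which makes UMP, changed by 0.38 ± 0.069 (adjusted p = 0.0029). The paralog Ctps2 fell from 6.58 ± 0.147 RPKM with DMSO to 5.32 ± 0.207 RPKM with GSK-J4 (adjusted p = 0.017), a call lost without the DMSO libraries of mice 1 and 2 or the GSK-J4 libraries of mice 2 and 3 (adjusted p = 0.051 to 0.065). The rises of the list numbered 3 without the DMSO library of mouse 1 or the GSK-J4 library of mouse 2 and 4 without the DMSO library of mouse 3 or the GSK-J4 library of mouse 3. In CD138+ cells 6 genes of this list fell, with a median of -0.11. The difference between fractions was called for 4 of the 21 genes (Ppat, Gart, Atic and Ctps), each more positive in GL7+ cells, against 1.03% of all tested genes called in either direction and 0.677% in this one.

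Of 25 MYC and ribosome biogenesis genes 7 rose, with a median log2 change of 0.19. Of the 25 changes 24 were positive, against 47.5% over all tested genes. The rises numbered 12 with median-ratio scaling and 12 with the mouse as a block. Nolc1, a nucleolar chaperone, rose from 69.2 ± 0.868 RPKM with DMSO to 88.9 ± 4.73 RPKM with GSK-J4. Srm, spermidine synthase, rose from 129.6 ± 7.79 RPKM with DMSO to 169.1 ± 13.7 RPKM with GSK-J4. Myc itself was not called, at 27.01 ± 1.33 RPKM with DMSO and 32.9 ± 1.37 RPKM with GSK-J4 (adjusted p = 0.052), although it was with the mouse as a block (0.042) and in some other alternatives. In CD138+ cells 2 members of the list rose and 4 fell, around a median of -0.04.

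Many genes of the secretory apparatus rose. Of 28 unfolded protein response genes 16 rose, with a median log2 change of 0.28. Among those not called, named here outside the rule, were Ern1, Atf6 and Eif2ak3. Their means were 7.97, 59.5 and 23.4 RPKM with DMSO and 8.24, 58.6 and 24.8 RPKM with GSK-J4. Ddit3 was not called either and lay lower without overlap, with means of 22.2 RPKM with DMSO and 18.8 RPKM with GSK-J4. Of 26 genes of COPII and COPI vesicle coats 8 rose (median 0.15), of 23 genes of ER translocation and signal peptide processing 7 rose (median 0.13), and of 22 N-glycosylation genes 4 rose (median 0.15). Creld2, a protein released under ER stress, stood at 101, 104 and 96.4 RPKM with DMSO and 144, 152 and 154 RPKM with GSK-J4 (log2 change 0.57 ± 0.058, adjusted p = 7.1e-05). Hsp90b1 (GRP94), the ER chaperone of the HSP90 family, stood at 843.8, 860.3 and 823.2 RPKM with DMSO and 1124.2, 1264.9 and 1160.4 RPKM with GSK-J4 (log2 change 0.49 ± 0.076, adjusted p = 0.001). The groups lay clear of each other for both. The co-chaperone Dnajb11 changed by 0.38 ± 0.056 (adjusted p = 0.00077). Sec24d, which selects cargo for COPII vesicles, stood at 25.4, 25.4 and 24.98 RPKM with DMSO and 33.5, 37.2 and 34.9 RPKM with GSK-J4 (log2 change 0.46 ± 0.054, adjusted p = 0.00018). The cargo receptor Lman1 rose from 61.1 ± 3.08 RPKM with DMSO to 76.6 ± 5.01 RPKM with GSK-J4. At the translocon, Srpr, the receptor for the signal recognition particle, rose from 83.1 ± 2.33 RPKM with DMSO to 109.6 ± 5.92 RPKM with GSK-J4, and Sec61a1, the channel itself, from 105 ± 2.24 RPKM with DMSO to 128 ± 9.39 RPKM with GSK-J4. The vesicle coat count was 5 without the DMSO libraries of mice 1 and 3 or the GSK-J4 libraries of mice 2 and 3 and 13 with median-ratio scaling. The N-glycosylation count was none without the DMSO library of mouse 3 or the GSK-J4 library of mouse 2, 1 without the GSK-J4 library of mouse 3, 2 without the DMSO library of mouse 1, 7 with median-ratio scaling and 2 with no filter on low values.

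The promoters of several of these chaperones share an ER stress response element, CCAAT and CCACG with 9 bases between them, and the stretches around it are shown because 6 of the genes that rose carry it. Capitals mark the element, which reads in reverse complement in the last 3, and all are from GRCm38.p6 on the gene's own strand. That is the plus strand for Hspa5 (chr2:34772020-34772048), Pdia6 (chr12:17266486-17266514), Dnajc3 (chr14:118937822-118937850) and Creld2 (chr15:88819515-88819543). It is the minus strand for Hsp90b1 (chr10:86705633-86705661 and chr10:86705528-86705556) and Calr (chr8:84847070-84847098).
Hspa5: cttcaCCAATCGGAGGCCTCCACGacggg
Pdia6: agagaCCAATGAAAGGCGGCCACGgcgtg
Dnajc3: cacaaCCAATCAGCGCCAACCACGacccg
Hsp90b1, first: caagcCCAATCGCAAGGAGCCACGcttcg
Hsp90b1, second: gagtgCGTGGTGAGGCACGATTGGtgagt
Calr: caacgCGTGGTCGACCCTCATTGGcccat
Creld2: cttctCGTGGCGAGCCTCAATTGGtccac

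On either strand of the 250 bases before a start, the element was found in 6 of the 13 unfolded protein response genes that rose and have a promoter in the table, and in 3 of the 11 that were not called (Canx, Syvn1 and Ero1lb). It was found in 0.212% of the 8021 tested genes with a promoter and in 0.113% of the 32851 promoters. Hspa5 (BiP), Pdia6 and Dnajc3, named for the element and not by the rule, rose by 0.30, 0.30 and 0.27 on the log2 scale. Calr, the lectin chaperone calreticulin, rose from 682 ± 12.3 RPKM with DMSO to 854 ± 42.9 RPKM with GSK-J4.

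Of 22 tested plasma cell genes 14 rose, with a median log2 change of 0.30. Ell2, an elongation factor that favours the secreted form of immunoglobulin mRNA, stood at 41.7, 42.6 and 41.4 RPKM with DMSO and 55.8, 63.4 and 57.4 RPKM with GSK-J4 (log2 change 0.48 ± 0.066, adjusted p = 0.00054). Jchain, which joins IgM and IgA subunits, stood at 271.9, 284.4 and 243.7 RPKM with DMSO and 329.8, 376.8 and 350.9 RPKM with GSK-J4 (log2 change 0.40 ± 0.080, adjusted p = 0.0046). Irf4, a master regulator of the plasma cell programme, stood at 129, 128 and 125 RPKM with DMSO and 159, 171 and 171 RPKM with GSK-J4 (log2 change 0.39 ± 0.056, adjusted p = 0.00065). None of these groups overlapped. Prdm1, Xbp1 and Sdc1 rose by 0.40, 0.34 and 0.71 (adjusted p = 0.018, 0.026 and 0.017). Prdm1 lost its call without the DMSO libraries of mice 2 and 3 or the GSK-J4 library of mouse 2 (adjusted p = 0.062 to 0.076) and with a pseudocount of 0.1 (0.081). Xbp1 lost its call without the DMSO libraries of mice 1 and 3 or the GSK-J4 libraries of mice 2 and 3 (adjusted p = 0.08 to 0.1) and with no filter on low values (0.06). Sdc1 lost its call without the DMSO libraries of mice 1 and 3 or the GSK-J4 libraries of mice 2 and 3 (adjusted p = 0.057 to 0.073). The count for the list was 4 without the DMSO library of mouse 3 or the GSK-J4 library of mouse 2 and 7 without the DMSO library of mouse 1 or the GSK-J4 library of mouse 3. Sdc1, the protein used to select the other fraction, stood at 1.30, 1.54 and 1.26 RPKM with DMSO and 2.33, 3.30 and 3.005 RPKM with GSK-J4, against a mean of 32.6 RPKM in CD138+ cells given DMSO. Whether more cells on the way to plasma cells lay in the GL7+ fraction or each cell held more of these RNAs cannot be told apart in bulk libraries, as for every group of genes here.

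Genes of the mature B cell moved the other way. Of 30 mature B cell genes 14 fell and 2 rose, with a median log2 change of -0.22, beside the lower summed B cell markers given above. Fcer2a, the low-affinity IgE receptor CD23 of follicular B cells, stood at 42.6, 45.1 and 45.5 RPKM with DMSO and 22.0, 20.3 and 20.3 RPKM with GSK-J4 (log2 change -1.05 ± 0.10, adjusted p = 5.3e-05). Btla, an inhibitory receptor, stood at 47.1, 40.4 and 51.6 RPKM with DMSO and 33.3, 27.4 and 30.7 RPKM with GSK-J4 (log2 change -0.59 ± 0.087, adjusted p = 0.00078). The tetraspanin Cd37 stood at 69.6, 64.3 and 66.0 RPKM with DMSO and 51.0, 42.4 and 49.9 RPKM with GSK-J4 (log2 change -0.48 ± 0.065, adjusted p = 0.00048). All 3 were lower in every GSK-J4 library than in any DMSO library. Cd79b, the signalling chain of the B cell receptor, fell from 464 ± 3.42 RPKM with DMSO to 358 ± 26.0 RPKM with GSK-J4. Cr2, the complement receptor CD21, went against the list, at 8.198, 7.94 and 8.54 RPKM with DMSO and 12.2, 12.3 and 11.9 RPKM with GSK-J4 (log2 change 0.51 ± 0.082, adjusted p = 0.0013). The inhibitory receptor Cd22 fell by 0.54 on the log2 scale and lost its call without the DMSO libraries of mice 1 and 3 or the GSK-J4 library of mouse 2 (adjusted p = 0.051 to 0.074). The falls of the list numbered 8 without the GSK-J4 library of mouse 2 and 9 without the DMSO library of mouse 1, and the rises 1 without the DMSO libraries of mice 1 and 3 or the GSK-J4 libraries of mice 2 and 3, 1 with quantile normalization and 1 with the mouse as a block. Of the transcription factors, Id3, Ets1 and Ikzf3 were among the 14 that fell. Pax5 lay lower without overlap and was not called (log2 change -0.28 ± 0.10, adjusted p = 0.084), though it was in the fit of the 6 libraries alone (0.0095) and with voom (0.0044). Bach2 and Bcl6 had overlapping groups (log2 change 0.01 and -0.14).

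Most MHC class II genes fell. Of 11 tested genes 9 fell, with a median log2 change of -0.44 and a range from -0.85 to 0.02. H2-Ob, a chain of the DO molecule that restrains peptide loading, stood at 40.6, 36.9 and 39.96 RPKM with DMSO and 24.8, 18.9 and 20.497 RPKM with GSK-J4 (log2 change -0.85 ± 0.083, adjusted p = 5.5e-05). Its partner H2-Oa stood at 10.4, 10.7 and 9.94 RPKM with DMSO and 6.48, 5.13 and 5.49 RPKM with GSK-J4 (log2 change -0.76 ± 0.11, adjusted p = 0.00075). The DM molecule that loads peptides fell too, H2-DMa from 57.8 ± 1.87 RPKM with DMSO to 40.4 ± 3.12 RPKM with GSK-J4 and H2-DMb2 from 123 ± 2.97 RPKM with DMSO to 83.5 ± 6.70 RPKM with GSK-J4. Ciita, the transactivator of the class II genes, stood at 16.6, 16.6 and 17.8 RPKM with DMSO and 12.9, 11.2 and 11.7 RPKM with GSK-J4. Its GSK-J4 libraries lay below its DMSO libraries (log2 change -0.47 ± 0.11, adjusted p = 0.012), and the call was lost without the GSK-J4 library of mouse 2 (adjusted p = 0.055). Among class I presentation genes 2 of 14 rose, the chaperones Calr and Pdia3. The heavy chain H2-D1, which shares reads with its class I relatives, stood at 335 ± 22.2 RPKM with DMSO and 365 ± 12.1 RPKM with GSK-J4 and was not called.

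Of 25 B cell receptor signalling genes 7 fell and 1 rose, with a median log2 change of -0.12. The phosphatase Ptpn6 (SHP-1) fell from 143 ± 4.30 RPKM with DMSO to 116 ± 5.42 RPKM with GSK-J4. The falls numbered 3 without the DMSO library of mouse 3 or the GSK-J4 library of mouse 2 and 4 without the DMSO library of mouse 1 or the GSK-J4 library of mouse 3. The rise was the adaptor Blnk, a call lost without the DMSO libraries of mice 1 and 3 or the GSK-J4 libraries of mice 2 and 3 (adjusted p = 0.092 to 0.13), with quantile normalization (0.16) and with the mouse as a block (0.051), and the rises numbered 2 without the GSK-J4 library of mouse 1 and 2 with median-ratio scaling. Of 24 NF-kB target genes 7 fell and 1 rose, with a median of -0.16. Nfkb2, a subunit of the noncanonical pathway, stood at 42.2, 41.4 and 43.0 RPKM with DMSO and 33.1, 30.4 and 32.3 RPKM with GSK-J4 (log2 change -0.39 ± 0.055, adjusted p = 0.00059). Birc3, a ubiquitin ligase that acts in the same pathway, fell from 42.3 ± 0.553 RPKM with DMSO to 33.5 ± 1.29 RPKM with GSK-J4. Ltb, lymphotoxin beta, stood at 42.8, 39.4 and 35.9 RPKM with DMSO and 18.1, 12.9 and 12.6 RPKM with GSK-J4 (log2 change -1.39 ± 0.13, adjusted p = 5.3e-05), the third largest fall among called genes. The single rise was Ccl22, a chemokine that attracts T cells, at 22.9, 23.4 and 29.6 RPKM with DMSO and 43.5, 38.2 and 58.2 RPKM with GSK-J4 (log2 change 0.85 ± 0.16, adjusted p = 0.0036).

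Cytokine and chemokine genes divided. Of 16 tested, 4 rose and 3 fell, and the median log2 change was -0.01. Il10, an anti-inflammatory cytokine of stimulated B cells, stood at 11.8, 10.04 and 10.4 RPKM with DMSO and 17.2, 18.1 and 19.9 RPKM with GSK-J4 (log2 change 0.73 ± 0.14, adjusted p = 0.0042). Ccl3 and Ccl4, chemokines of activated leukocytes, were low. Ccl3 stood at 1.17, 1.25 and 1.37 RPKM with DMSO and 3.79, 3.26 and 5.86 RPKM with GSK-J4. Ccl4 stood at 0.839, 0.723 and 1.97 RPKM with DMSO and 3.83, 3.91 and 5.87 RPKM with GSK-J4, where the lowest DMSO library held 6 reads. Their GSK-J4 libraries lay above their DMSO libraries (log2 change 1.20 ± 0.20, adjusted p = 0.0018, and log2 change 1.37 ± 0.23, adjusted p = 0.0017). Il12a, a subunit shared by IL-12 and IL-35, fell from 14.8 ± 1.33 RPKM with DMSO to 10.5 ± 1.28 RPKM with GSK-J4. The rises numbered 2 with a filter of 5 RPKM.

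Receptors for the cytokines in the medium also divided. Of 18 genes of the IL-2 and IL-5 receptors and the STAT5 pathway, 4 rose and 2 fell. Socs2, a feedback inhibitor induced through STAT5, stood at 5.85, 5.92 and 5.60 RPKM with DMSO and 9.76, 11.2 and 11.9 RPKM with GSK-J4 (log2 change 0.81 ± 0.075, adjusted p = 5.3e-05). The shared gamma chain Il2rg stood at 102, 103 and 102 RPKM with DMSO and 86.5, 80.5 and 87.5 RPKM with GSK-J4 (log2 change -0.27 ± 0.057, adjusted p = 0.006). The groups were apart for both genes, in opposite directions. The kinase Jak3, which binds that chain, fell from 20.8 ± 0.388 RPKM with DMSO to 17.0 ± 0.383 RPKM with GSK-J4. Il2rb, the beta chain, rose from 3.91 ± 0.523 RPKM with DMSO to 5.67 ± 1.17 RPKM with GSK-J4 (adjusted p = 0.028), a call lost without the DMSO libraries of mice 1 and 2 or the GSK-J4 libraries of mice 1 and 3 (adjusted p = 0.06 to 0.13) and with no filter on low values (0.061). The rises of the list numbered 2 without any 1 of the 6 libraries, 2 with no filter on low values and 2 with a filter of 5 RPKM.

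Migration genes fell with 2 exceptions among the called ones. Of 17 tested 6 fell and 2 rose, with a median log2 change of -0.17. Klf2, a transcription factor that drives exit from lymphoid tissue, stood at 22.2, 21.7 and 24.6 RPKM with DMSO and 14.1, 9.72 and 13.1 RPKM with GSK-J4 (log2 change -0.85 ± 0.12, adjusted p = 0.00054). All 3 GSK-J4 libraries lay below the DMSO libraries. The sphingosine phosphate receptor S1pr4 fell from 19.1 ± 0.552 RPKM with DMSO to 11.3 ± 0.980 RPKM with GSK-J4. Cxcr4, the CXCL12 receptor that homes plasma cells to bone marrow, rose instead, at 31.4, 29.0 and 27.5 RPKM with DMSO and 38.8, 41.3 and 40.9 RPKM with GSK-J4 (log2 change 0.45 ± 0.056, adjusted p = 0.00026). The integrin chain Itga4 rose from 27.4 ± 1.74 RPKM with DMSO to 33.7 ± 2.19 RPKM with GSK-J4, a call lost without the GSK-J4 library of mouse 2 (adjusted p = 0.054). The rises numbered 1 without the GSK-J4 library of mouse 2.

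Immediate early genes, which signalling induces without new protein synthesis, included many that fell in GL7+ cells given GSK-J4. Of 21 tested 10 fell, and the median log2 change was -0.28. Junb, an AP-1 subunit, stood at 64.0, 62.9 and 67.7 RPKM with DMSO and 48.1, 41.5 and 44.2 RPKM with GSK-J4 (log2 change -0.53 ± 0.072, adjusted p = 0.00048). Zfp36, which degrades cytokine mRNAs, stood at 122, 104 and 132 RPKM with DMSO and 84.4, 78.7 and 95.4 RPKM with GSK-J4 (log2 change -0.46 ± 0.085, adjusted p = 0.003). Neither gene's groups overlapped. Btg2, an antiproliferative gene, fell from 26.3 ± 1.10 RPKM with DMSO to 20.6 ± 0.126 RPKM with GSK-J4. The falls numbered 4 without the DMSO library of mouse 3 or the GSK-J4 library of mouse 2, 5 without the DMSO library of mouse 1 and 5 with no filter on low values. In CD138+ cells 5 members rose and 2 fell, with a median of 0.15. The difference between fractions was called for 5 of the 21 (Junb, Egr1, Ier2, Dusp5 and Zfp36), each lower in GL7+ cells, against 0.348% of tested genes called in that direction.

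Hypoxia and glycolysis genes fell as well. Of 30 tested 16 fell, with a median log2 change of -0.30. Aldoc, an aldolase induced by hypoxia, stood at 39.9, 40.9 and 34.1 RPKM with DMSO and 17.1, 13.5 and 10.8 RPKM with GSK-J4 (log2 change -1.42 ± 0.23, adjusted p = 0.0015). Bnip3l, a mitophagy receptor, stood at 84.4, 87.9 and 67.4 RPKM with DMSO and 56.8, 49.7 and 36.6 RPKM with GSK-J4 (log2 change -0.75 ± 0.15, adjusted p = 0.0058). For both, the library of mouse 3 was the lowest within each treatment, as it was for the next pair. Pdk1, which keeps pyruvate from the mitochondria, fell from 27.1 ± 3.44 RPKM with DMSO to 17.1 ± 3.48 RPKM with GSK-J4, and the glycolytic isomerase Gpi1 from 271 ± 17.6 RPKM with DMSO to 209 ± 17.0 RPKM with GSK-J4. The falls numbered 5 without the GSK-J4 library of mouse 3, 6 without the DMSO libraries of mice 1 and 2, 8 without the GSK-J4 library of mouse 2 and 10 with no filter on low values. The hypoxia response core ACGTG, on either strand, was in the promoter windows of 7 of the 14 members that fell and had one and of 11 of the 14 that were not called, against 26.3% of tested genes. Among 25 respiratory chain and ATP synthase genes 1 rose (4%, against 6.35% of all tested genes). It was Cox7a2, a call lost without the DMSO libraries of mice 1 and 3 or the GSK-J4 library of mouse 3 (adjusted p = 0.054 to 0.081).

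Cholesterol synthesis genes fell at several steps. Of 23 tested 10 fell, with a median log2 change of -0.22. Pmvk, phosphomevalonate kinase, stood at 46.4, 48.7 and 45.2 RPKM with DMSO and 33.7, 33.2 and 32.9 RPKM with GSK-J4 (log2 change -0.48 ± 0.054, adjusted p = 0.00015). Mvd, the next enzyme of the mevalonate pathway, stood at 50.8, 54.8 and 51.5 RPKM with DMSO and 39.3, 35.7 and 40.02 RPKM with GSK-J4 (log2 change -0.44 ± 0.067, adjusted p = 0.00092). Cyp51, a later demethylase, stood at 110.1, 114.4 and 112.6 RPKM with DMSO and 94.2, 95.2 and 96.5 RPKM with GSK-J4 (log2 change -0.24 ± 0.040, adjusted p = 0.0017). For these 3 enzymes every GSK-J4 library lay below every DMSO library. The count was 6 without the GSK-J4 library of mouse 2. In CD138+ cells 3 of the list fell, and the median was -0.07.

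Of 19 ATF4 target genes, which the amino acid response induces, 5 fell, with a median log2 change of -0.12. Trib3, a pseudokinase of that response, stood at 14.2, 16.4 and 15.2 RPKM with DMSO and 9.43, 9.14 and 6.91 RPKM with GSK-J4 (log2 change -0.78 ± 0.12, adjusted p = 0.0012). Cth, which makes cysteine, stood at 22.1, 29.6 and 24.3 RPKM with DMSO and 14.7, 14.2 and 12.05 RPKM with GSK-J4 (log2 change -0.84 ± 0.13, adjusted p = 0.00084). The groups did not overlap, but the call of Cth was lost with a pseudocount of 0.1 (adjusted p = 0.17). The falls numbered 2 without the DMSO library of mouse 2 or the GSK-J4 libraries of mice 1 and 3, 3 without the DMSO libraries of mice 1 and 3, 3 with median-ratio scaling, 2 with no filter on low values and 2 with a pseudocount of 0.1. Gstt1, a glutathione transferase outside the lists, had the largest fall of any called gene. It stood at 12.7, 10.6 and 9.44 RPKM with DMSO and 3.44, 2.63 and 2.84 RPKM with GSK-J4 (log2 change -1.58 ± 0.14, adjusted p = 4.6e-05).

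Of 21 p53 target genes 7 fell and 1 rose, with a median log2 change of -0.11. Mdm2, which degrades p53, stood at 32.7, 32.1 and 33.3 RPKM with DMSO and 38.5, 37.5 and 38.0 RPKM with GSK-J4 (log2 change 0.21 ± 0.050, adjusted p = 0.012). Sesn1, a stress-induced sestrin, fell from 10.8 ± 0.799 RPKM with DMSO to 7.43 ± 0.740 RPKM with GSK-J4. The falls numbered 4 without the DMSO library of mouse 2 or the GSK-J4 library of mouse 1. Of 13 BCL2 family genes 4 fell and 1 rose. The survival gene Bcl2l1 (BCL-XL) stood at 17.1, 19.3 and 15.6 RPKM with DMSO and 22.4, 27.5 and 26.2 RPKM with GSK-J4 (log2 change 0.52 ± 0.11, adjusted p = 0.0059). The falls were the survival gene Bcl2 and the death genes Bbc3, Bcl2l11 and Bmf. Bbc3 (PUMA) stood at 13.3, 15.7 and 15.1 RPKM with DMSO and 10.2, 9.54 and 10.6 RPKM with GSK-J4 (log2 change -0.49 ± 0.081, adjusted p = 0.0015). Bcl2l11 (BIM) stood at 14.0, 12.6 and 13.5 RPKM with DMSO and 10.6, 10.2 and 9.78 RPKM with GSK-J4 (log2 change -0.36 ± 0.082, adjusted p = 0.0097). Bcl2 fell from 19.9 ± 0.121 RPKM with DMSO to 14.5 ± 1.10 RPKM with GSK-J4, a call lost without the GSK-J4 library of mouse 3 (adjusted p = 0.05).

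Of 25 interferon response genes 6 rose, with a median log2 change of 0.17. Lgals3bp, a secreted glycoprotein, stood at 14.4, 13.3 and 14.0 RPKM with DMSO and 25.3, 21.0 and 23.3 RPKM with GSK-J4 (log2 change 0.70 ± 0.075, adjusted p = 9.4e-05). Zbp1, a sensor of nucleic acids, stood at 18.2, 14.8 and 14.5 RPKM with DMSO and 28.9, 22.2 and 24.6 RPKM with GSK-J4 (log2 change 0.64 ± 0.090, adjusted p = 0.00056). The groups of these 2 genes lay apart. Oas1a, which may share reads with its close relatives, rose from 4.01 ± 0.598 RPKM with DMSO to 6.98 ± 0.664 RPKM with GSK-J4. The count was 10 with quantile normalization.

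Outside the lists, Tubb6, a tubulin, stood at 9.23, 9.53 and 8.53 RPKM with DMSO and 16.8, 19.3 and 19.2 RPKM with GSK-J4 (log2 change 0.94 ± 0.10, adjusted p = 9.4e-05). Pik3cg, a PI3 kinase catalytic subunit, stood at 7.35, 6.95 and 6.25 RPKM with DMSO and 11.4, 15.8 and 12.96 RPKM with GSK-J4 (log2 change 0.87 ± 0.11, adjusted p = 0.0003). Each rose in all 3 mice. Mnda, whose reads may be split among close paralogs, changed by 0.97 ± 0.094 (adjusted p = 5.3e-05). Slpi, a protease inhibitor, changed by 1.35 ± 0.41 (adjusted p = 0.039), but the call was lost without any 1 of the 6 libraries (adjusted p = 0.06 to 0.13), with no filter on low values (0.1), with a pseudocount of 0.1 (0.36) and with the mouse as a block (0.063). Among the falls, Il4i1, an amino acid oxidase, stood at 5.64, 5.69 and 6.64 RPKM with DMSO and 3.16, 2.55 and 2.79 RPKM with GSK-J4 (log2 change -0.87 ± 0.10, adjusted p = 0.00023). Pirb, an inhibitory receptor with close relatives, changed by -0.86 ± 0.11 (adjusted p = 0.00029). The small RNAs Mir1894, Mir421 and Snord35b, all under 90 bases long, were also called, and each lost the call without 4 or more of the 6 libraries.

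**Figure D3:**
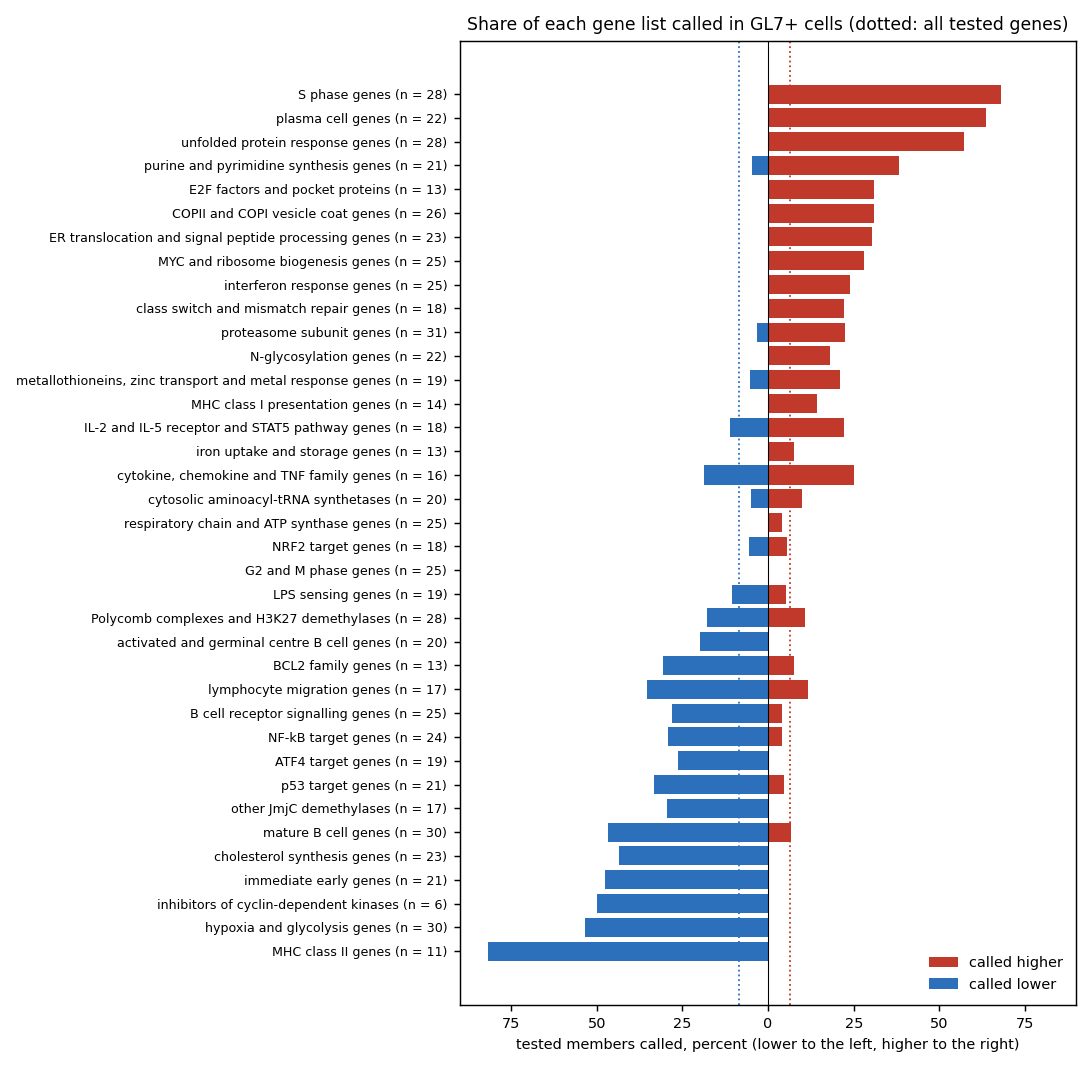
Bars give the percent of tested members of each gene list that were called higher (red, to the right) or lower (blue, to the left) in GL7+ cells, with the number tested beside each name and the lists of cell type markers left out; dotted lines mark the 6.35% and 8.41% over all tested genes. Among the lists drawn, S phase, plasma cell and unfolded protein response genes extend furthest to the right, and MHC class II, hypoxia and glycolysis genes and inhibitors of cyclin-dependent kinases furthest to the left.

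In each of the remaining lists most genes were not called. Over all tested genes 6.35% rose and 8.41% fell. Near those shares lay LPS sensing genes (5.26% higher, 10.5% lower) and NRF2 targets (5.56% each way). So did iron genes (7.69% higher) and aminoacyl-tRNA synthetases (10% higher, 5% lower). The counts of these lists therefore tell little about them as groups. Of 31 proteasome subunit genes 7 rose and 1 fell, and the rises numbered none without the DMSO library of mouse 1 or the GSK-J4 library of mouse 3, 1 without the DMSO library of mouse 3, 2 without the GSK-J4 library of mouse 2, 4 with no filter on low values and 4 with quantile normalization. Of 18 class switch and mismatch repair genes 4 rose, or 2 without the DMSO library of mouse 2 or the GSK-J4 library of mouse 2. Hmces, which shields abasic sites, stood at 3.58, 3.65 and 4.26 RPKM with DMSO and 5.41, 7.40 and 6.20 RPKM with GSK-J4 (log2 change 0.60 ± 0.10, adjusted p = 0.0019). Of 20 activated and germinal centre B cell genes 4 fell. Among them, Cd83, an activation marker, stood at 68.1, 72.6 and 69.0 RPKM with DMSO and 49.97, 47.3 and 49.7 RPKM with GSK-J4 (log2 change -0.50 ± 0.084, adjusted p = 0.0015). The transcription factor Irf8 fell from 83.8 ± 0.544 RPKM with DMSO to 67.4 ± 3.18 RPKM with GSK-J4. In both genes the groups were apart. Of 19 LPS sensing genes 2 fell and 1 rose. Tlr1, which senses lipopeptides, fell from 22.0 ± 2.42 RPKM with DMSO to 15.2 ± 0.703 RPKM with GSK-J4. Unc93b1, which escorts Toll-like receptors, lost its call without the GSK-J4 library of mouse 2 (adjusted p = 0.067), and the adaptor Tirap lost its call without any 1 of the 6 libraries (adjusted p = 0.052 to 0.12). Of 13 iron genes 1 rose, the transferrin receptor Tfrc, from 83.0 ± 1.33 RPKM with DMSO to 106 ± 6.29 RPKM with GSK-J4, and the rises numbered 3 with median-ratio scaling and 4 with quantile normalization. Of 18 NRF2 target genes Gsr rose and Gpx4 fell. Gsr lost its call without the DMSO libraries of mice 1 and 3 or the GSK-J4 libraries of mice 2 and 3 (adjusted p = 0.052 to 0.069). Gpx4 lost its call without the DMSO libraries of mice 1 and 2 or the GSK-J4 libraries of mice 2 and 3 (adjusted p = 0.062 to 0.07). With quantile normalization 3 NRF2 target genes were called higher and 2 lower. Of 20 aminoacyl-tRNA synthetases Hars and Rars rose and Vars fell. Hars lost its call without the DMSO libraries of mice 1, 2 and 3 or the GSK-J4 libraries of mice 2 and 3 (adjusted p = 0.051 to 0.13). Rars lost its call without the DMSO library of mouse 1 or the GSK-J4 library of mouse 3 (adjusted p = 0.058 to 0.067). Vars lost its call without any 1 of the 6 libraries (adjusted p = 0.086 to 0.14), with median-ratio scaling (0.12) and with no filter on low values (0.072).

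The change in GL7+ cells was set beside that in CD138+ cells, which was measured in 6 other libraries. The calls in these fractions are not independent. Each gene's spread was pooled over all 15 libraries, so a gene of low spread is more readily called in both fractions. The labels also give both fractions the same mouse numbers. The shares over all tested genes are therefore no chance level for the overlap. How much of the overlap came from the shared spread or mice was not tested. Of the 638 genes that rose in GL7+ cells, 189 also rose in CD138+ cells. These are 29.6% of the GL7+ rises and 38.4% of the CD138+ rises, where 4.9% of all tested genes rose. Of the 845 falls 380 were shared, 45.0% of the GL7+ falls and 41.1% of the CD138+ falls, where 9.2% of all tested genes fell. Called in the opposite direction were 8 of the rises and 13 of the falls. The difference between the fractions' changes was called for 103 genes (1.03%), of which 68 (0.677%) were more positive in GL7+ cells and 35 (0.348%) more negative. Among them were 32 of the genes that rose and 29 of those that fell in GL7+ cells. With the mouse as a block the number was 35. In that fit a CD138+ GSK-J4 library could not be paired, because its column number matches no mouse label. How much of the drop came from pairing was not tested.

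Single libraries moved the number of differences called between fractions. Leaving out GL7+ libraries gave 26, 57 and 38 for the DMSO libraries of mice 1, 2 and 3 and 62, 68 and 20 for the GSK-J4 libraries of mice 1, 2 and 3. Leaving out CD138+ libraries gave 38, 42 and 46 for the DMSO libraries and 26 for the second GSK-J4 library. It was 378 without the second naive library. The differences named for single genes were not followed through these alternatives gene by gene.

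Pdcd1 (PD-1), an inhibitory receptor, gave one of the widest gaps. It stood at 1.39, 1.54 and 1.06 RPKM with DMSO and 4.42, 2.77 and 4.33 RPKM with GSK-J4 in GL7+ cells (log2 change 1.04 ± 0.15, adjusted p = 0.00057), against a log2 change of -0.12 in CD138+ cells. Tnfrsf8 (CD30), a receptor of activated lymphocytes, stood at 6.17, 5.56 and 6.62 RPKM with DMSO and 10.5, 11.8 and 12.6 RPKM with GSK-J4. Its GL7+ libraries were apart (log2 change 0.82 ± 0.12, adjusted p = 0.00072), with a call lost with a pseudocount of 0.1 (adjusted p = 0.08), and its change in CD138+ cells was -0.08. For Fcer2a, Cd83 and Cd22 the change in CD138+ cells was the more negative one, at -1.83, -1.15 and -1.54.

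**Figure D4:**
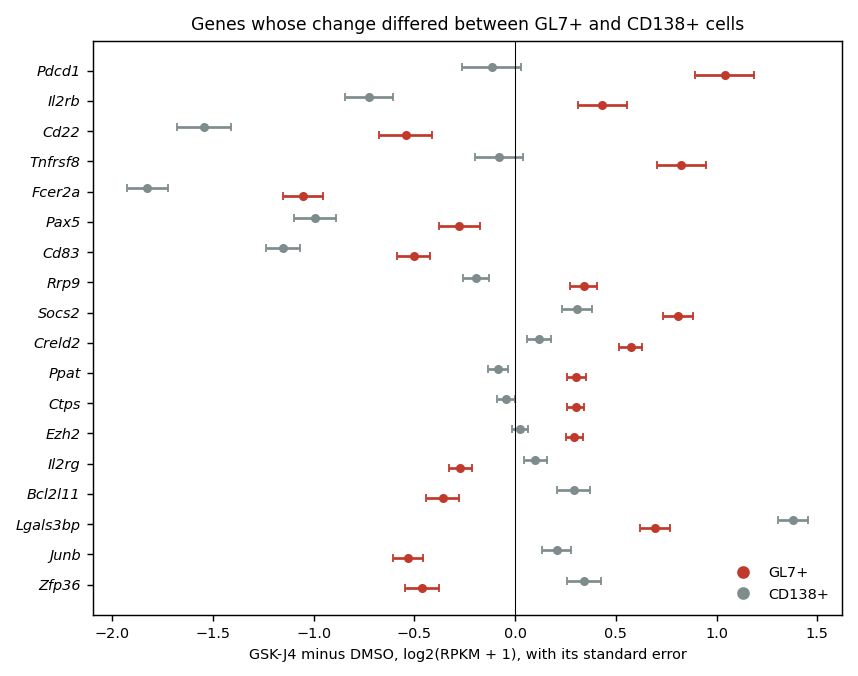
Log2 change with GSK-J4, with its standard error, in GL7+ cells (red) and in CD138+ cells (grey) for the 18 named genes, other than a short RNA, whose change differed between the fractions. For each gene the standard error is the same in both fractions, because it comes from the fit of all 15 libraries. Junb, Zfp36, Bcl2l11 and Il2rg lie below 0 in GL7+ cells and above 0 in CD138+ cells, and Il2rb and Rrp9 are among those above 0 in GL7+ cells and below 0 in CD138+ cells.

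**Figure D5:**
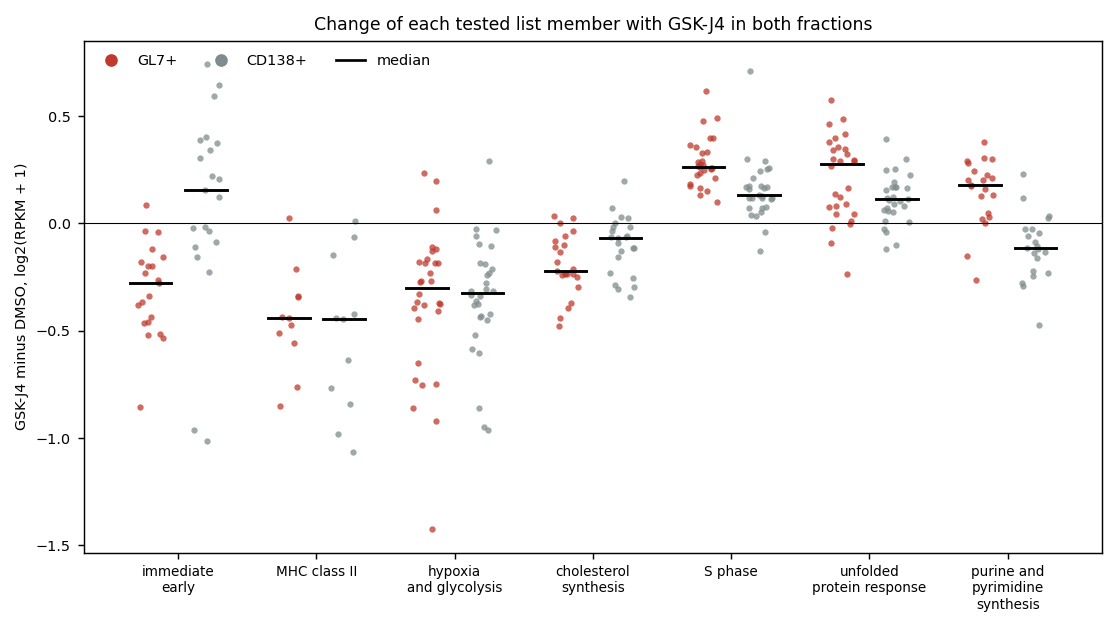
Each point is 1 tested member of a gene list, with its log2 change with GSK-J4 in GL7+ cells (red) and in CD138+ cells (grey), and bars mark the medians. Immediate early genes and nucleotide synthesis genes have medians of opposite sign in the fractions (-0.28 and 0.15, and 0.18 and -0.11).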

How the data were processed

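Poly(A) RNA-seq values were deposited as 1 table of RPKM for the series, made by the authors from reads aligned with TopHat2 to mm9, per the submitters' processing notes. Counting tool and gene models: not given in the sources used here. RPKM multiplied by transcript length summed to the same total in every library. In each library at least 99.9% of low values were whole multiples of what 1 read is worth, within 0.1 read, so library depth and reads could be recovered. Columns were matched to samples by name, and 1 CD138+ GSK-J4 column, numbered 4, to its group.

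The main test was limma 3.58.1 in R 4.3.3 on log2(RPKM + 1), with a trend in variance, fitted to all 15 libraries in 5 groups, with Benjamini-Hochberg adjustment over the 10048 genes that reached 1 RPKM in 3 or more GL7+ libraries, called at 0.05. The difference between fractions was a contrast of the same fit. Moderated p-values rest on the spread between libraries within the 5 groups, pooled over all 15 libraries and moderated along the trend. The standard errors of a gene's GL7+ and CD138+ changes are therefore equal, and they do not show the spread of either fraction alone. On simulated data of this comparison, with 10076 genes, 62 of 100 changes of 0.5 on the log2 scale and 92 of 99 changes of 1 were recovered, with 2 false calls. The simulated counts had the same coefficient of variation, 0.06, for every gene and library beyond counting noise. They had no effect of the mouse and no noisier library, so these numbers are not error rates of the real comparison.

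Alternatives were voom on the recovered reads, other scalings (median-ratio, quantile), filters (none beyond a value above 0, 5 RPKM, all libraries) and a pseudocount of 0.1, library weights, the cultured groups alone, each library left out, and the mouse as a replicate block. A fit of the 6 GL7+ libraries with the block was added after seeing the data. The labels give the mouse of each culture, but the CD138+ GSK-J4 column matched only to its group could not be paired in the block. Deviations from the group means correlated at 0.146, 0.0673 and 0.111 between libraries of the same mouse, and at -0.129 to 0.00895 between those of different mice.

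Gene lists (45) and members were chosen with earlier results of these data known, and many lists share genes. Named genes were up to 15 per direction with the largest called changes at 5 RPKM or more and no overlap, up to 4 per list with the smallest adjusted p, list members called against the rest of their list, up to 3 per direction in each of 3 ranges of level, and a fixed set for the drug's targets, B cell and plasma cell regulators and metal response; not all are printed. Promoter sequences came from the RefSeq table, GRCm38.p6, whose 250 bases before the start were searched; 8021 tested genes had one. Computations used Python scripts and figures matplotlib.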

Additional observations from a re-analysis of the deposited data

Results flagged for a closer look

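The change with GSK-J4 differed between GL7+ and CD138+ cells in 19 of the named genes by limma's contrast of the 2 changes. Many of these genes were named for their change in GL7+ cells, so the count is a description only. Each value is the log2 change in GL7+ cells minus that in CD138+ cells. Among the changes of opposite sign, given for GL7+ and then CD138+ cells, were those of Junb (-0.53 and 0.21), Zfp36 (-0.46 and 0.34), Bcl2l11 (-0.36 and 0.29), Il2rg (-0.27 and 0.10), Il2rb (0.43 and -0.73) and Rrp9 (0.34 and -0.19). Their differences were -0.74 (adjusted p = 0.0063), -0.81 (adjusted p = 0.0093), -0.65 (adjusted p = 0.018), -0.37 (adjusted p = 0.042), 1.16 (adjusted p = 0.0089) and 0.53 (adjusted p = 0.018).

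The change was more positive in GL7+ cells for Socs2 at 0.50 (adjusted p = 0.038), Creld2 at 0.45 (adjusted p = 0.02), Ezh2 at 0.27 (adjusted p = 0.04), Pdcd1 at 1.16 (adjusted p = 0.018), Ctps at 0.35 (adjusted p = 0.018), Tnfrsf8 at 0.90 (adjusted p = 0.022) and Ppat at 0.39 (adjusted p = 0.018). The last 4 also had opposite signs, with changes of -0.12, -0.05, -0.08 and -0.09 in CD138+ cells. For 4 genes of B cell identity and activation, the change in GL7+ cells was the less negative one: Fcer2a by 0.77 (adjusted p = 0.021), Cd83 by 0.65 (adjusted p = 0.02), Cd22 by 1.00 (adjusted p = 0.022) and Pax5 by 0.72 (adjusted p = 0.03). Lgals3bp rose less in GL7+ cells, with a difference of -0.68 (adjusted p = 0.01). Mir421, a gene model of 76 bases at low read numbers, also had opposite signs and differed by -2.33 (adjusted p = 0.025).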

How the results depend on the processing

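The number of genes called in GL7+ cells was 1483, and it rose with fits that estimate spread from fewer or differently weighted libraries. It was 2429 in the cultured groups alone (1151 higher, 1278 lower), 2962 with library weights (1392, 1570), 2256 in the 6 GL7+ libraries alone (1021 higher) and 2613 with voom (1205, 1408). Leaving out single GL7+ libraries gave 777 to 1217 calls, 315 to 492 higher and 439 to 725 lower, and leaving out the second naive library gave 2286 (1072 higher, 1214 lower). With the mouse as a replicate block 659 genes were called higher and 916 lower. The CD138+ count of 1416 became 2288, 2666 and 929 in the cultured groups alone, with library weights and with the replicate block. It was 820 to 1057 without single CD138+ libraries and 2159 without the second naive library. The 103 differences between fractions became 479 and 883 in the first 2 of those fits, 459 with voom, 53 with no filter on low values and 35 with the replicate block. They were 20 to 122 without single libraries and 378 without the second naive library. With the replicate block, the CD138+ count and the differences come from a fit that could not pair a CD138+ GSK-J4 library. No gene called in GL7+ cells changed sign in any of these settings that tested it, though most of them could not have turned a sign. The causes of the shifts in number were not tested. Of the 167 named genes called in GL7+ cells, 150 stayed called with no filter, 152 with a pseudocount of 0.1, 162 with the replicate block or with median-ratio scaling, and 124 to 152 without single GL7+ libraries. The added fit of the 6 GL7+ libraries with the block called 948 higher and 1245 lower. Short gene models and genes of few reads, such as Ccl4, limit precision by depth.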
